A study of Homo sapiens with 12 samples.

Results

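Complement is a set of plasma proteins, most of them secreted by hepatocytes, that mark and lyse microbes, together with the membrane proteins that hold the cascade in check on the body's own cells. The genes described here are 35 complement components, regulators and receptors, chosen by name, of which 33 had a probe set with exactly 1 gene symbol among 18404 such genes on the array. CFHR3 and CFHR5 were not analysed here. Where a gene had several probe sets, the one with the highest mean over all arrays stood for it. Tests covered genes above the 40th percentile of an array's probe sets on 3 or more arrays, called the filter level here, and 26 of the 33 were. RNA came from HepG2C3A cells, a clonal line derived from the human liver tumour line HepG2 and kept for its hepatocyte-like functions. Culture lasted 96 h and used Petri dishes or a device that the labels call only a microsystem. Acetaminophen, an analgesic that is toxic to the liver in overdose, was present for 72 h in the treated cells of each kind of culture and absent from the controls. This gave 4 groups of 3 arrays, in which the labels name no other agent or genetic change. The labels give no dose, the cells were detached with trypsin before RNA extraction, and the description of Petri treated array 3 bears an asterisk that the labels leave unexplained. All values are log2 intensities, so that a difference of 1 is a doubling, and levels of different genes are not set against each other.

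The cascade starts in 3 ways. In the classical pathway the proteases C1r and C1s, bound to C1q on antibody, cut C4 and C2. In the lectin pathway mannose-binding lectin or a ficolin recognises sugars on a microbe and the proteases MASP-1 and MASP-2 make the same cuts, while the alternative pathway runs at a low rate in plasma through C3, factor B, factor D and properdin. All converge on cleavage of C3 and then of C5, after which C5b to C9 assemble into the pore called the membrane attack complex. Liver cells secrete most of these proteins and raise several of them, C3 and factor B among them, in the acute phase response to infection.

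The arrays carried markers of the hepatocyte character that the label gives, and some markers of other cell types. All 8 hepatocyte markers passed the filter, with a mean log2 level of the list between 11.25 and 11.73 over the arrays. Among them FGB read 6.20 to 7.35. Of 9 macrophage markers, 4 passed (CD14, MARCO, LYZ and C1QC), with LYZ at 12.07 to 12.60. PTPRC, CD163 and C1QA exceeded the filter level on 0 arrays. Of 5 endothelial markers 0 passed. Of 6 fibroblast markers 3 passed, namely COL1A1 (5.96 to 6.49), COL3A1 (4.96 to 5.52) and PDGFRB (5.61 to 6.22). DCN, LUM and RGS5 were over the filter level on 0 arrays. In the microsystem the macrophage marker LYZ rose (by 0.33 ± 0.09 in control and 0.39 ± 0.09 in treated cells) and CD14 fell (by 0.43 ± 0.11 and 0.66 ± 0.11), while the mean of all 9 markers ran from 5.27 to 5.36 in Petri controls and from 5.20 to 5.32 in microsystem controls. With culture in control cells 2 of the 8 hepatocyte markers rose (ALB by 0.28 ± 0.08 and AFP by 0.49 ± 0.13) and 3 fell, beside 26.5% and 18.3% of all genes. Those that fell were FGB by 0.46 ± 0.17, TF by 0.35 ± 0.09 and AHSG by 1.08 ± 0.07, and AHSG fell by 1.46 ± 0.07 in treated cells. AHSG, the gene of the plasma protein fetuin-A, also fell by 0.55 ± 0.07 with acetaminophen in the microsystem (adjusted p = 0.000778). The part of either in the complement results was not tested. Array medians lay between 5.56 and 5.63, and arrays of a group correlated across probe sets with r from 0.991 to 0.995. Both microsystem arrays numbered 3 stood apart on the third principal component, at scores of -17.15 and -13.90, and calls lost when both were left out are given below. The culture calls of C1S and CFD in treated cells and of CLU in control cells held without both. The labels do not say whether replicates were separate cultures. The p-values therefore measure only the spread between these arrays, which may be technical, and precision is limited by how few arrays there are.

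The stretches of 150 bases just before the transcription start of 6 genes are shown because all of these genes passed with culture and the same short motif occurs in genes that fell (CFB, VTN) and that rose (C1RL, MASP2). They come from RefSeq on GRCh38.p14 and are printed 5′ to 3′ in the direction of the gene, with motif matches in capitals.
CFB (chr6:31945945-31946094, plus strand): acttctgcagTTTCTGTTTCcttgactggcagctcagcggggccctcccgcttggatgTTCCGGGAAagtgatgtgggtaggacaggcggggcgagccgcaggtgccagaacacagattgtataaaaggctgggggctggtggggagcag
VTN (chr17:28370308-28370457, minus strand): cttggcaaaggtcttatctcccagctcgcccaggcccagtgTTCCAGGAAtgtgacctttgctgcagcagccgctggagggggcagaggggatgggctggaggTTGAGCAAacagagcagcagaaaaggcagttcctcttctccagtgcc
C1RL (chr12:7109215-7109364, minus strand): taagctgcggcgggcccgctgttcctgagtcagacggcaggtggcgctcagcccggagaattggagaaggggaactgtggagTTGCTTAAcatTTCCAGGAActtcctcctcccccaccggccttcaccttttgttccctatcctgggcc
MASP2 (chr1:11047240-11047389, minus strand): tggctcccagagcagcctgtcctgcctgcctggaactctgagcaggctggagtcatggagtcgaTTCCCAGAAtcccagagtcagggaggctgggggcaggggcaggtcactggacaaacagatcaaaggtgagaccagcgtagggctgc
C5 (chr9:121050276-121050425, minus strand): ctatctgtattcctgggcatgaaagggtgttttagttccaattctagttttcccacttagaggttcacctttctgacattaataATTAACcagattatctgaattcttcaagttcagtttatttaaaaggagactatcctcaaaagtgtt
MBL2 (chr10:52771653-52771802, minus strand): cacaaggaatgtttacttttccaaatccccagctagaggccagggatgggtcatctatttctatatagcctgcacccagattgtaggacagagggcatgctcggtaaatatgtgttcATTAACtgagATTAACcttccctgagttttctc

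Of the 35 genes, 25 had such a window, and the 250 bases before the start were searched on both strands for 5 motifs. The STAT motif TTCNNNGAA, bound by factors that signal for interleukin-6 and interferon, was found in 6 of these 25 windows, against 6.8% of 27305 genes. It lay 92 to 84 bases before the start of CFB, 109 to 101 before that of VTN, 57 to 49 before that of C1RL and 86 to 78 before that of MASP2, and C1R and C7 held it too. The HNF1 half-site GTTAAT was found in 5 of 25 windows, against 6.37% of all genes, with 2 copies in MBL2 and 1 each in C5, C1R, CFI and C4BPA. The C/EBP motif TTGCNNAA was found in 4 windows (C1R, C1RL, VTN and C6; 9.2% of all genes), the interferon response motif in that of CFB alone (3.05% of all genes), and the NF-kB motif in 0 (5.69% of all genes). A match is a description of the letters and not evidence of binding.

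Culture in the microsystem went with the largest differences, and they did not run one way along the cascade. Among untreated cells, 3 of 4 tested C3 and alternative genes, 3 of 4 terminal genes and 3 of 5 fluid-phase regulators fell in the microsystem and 0 rose, with C5 and VTN falling most. The cell-bound regulator CD55 fell too. The lectin MBL2, its protease MASP2, the C1r-like protease gene C1RL and the cell-bound proteins CD59 and C1QBP were higher. Of the 26 tested genes 12 fell and 5 rose, or 46.2% and 19.2%, against 18.3% of all 13199 genes tested that fell and 26.5% that rose. The median difference of the 26 was -0.220, beside 0.012 over all genes. In treated cells 13 fell and 6 rose (50% and 23.1%), against 18.9% and 22.6% of all genes, with medians of -0.271 and -0.001. The microsystem differences in control and in treated cells share no array, and across the 26 genes they correlated with r = 0.96 and had the same sign for 22. Of these genes 16 passed in the same direction in both. Over all 13199 genes 5926 passed in control and 5467 in treated cells. Agreement between the 2 comparisons was not computed over all genes, so it is not shown to be particular to complement genes. In RNA taken from many cells at once, fewer expressing cells and less RNA per cell cannot be told apart.

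**Figure D1:**
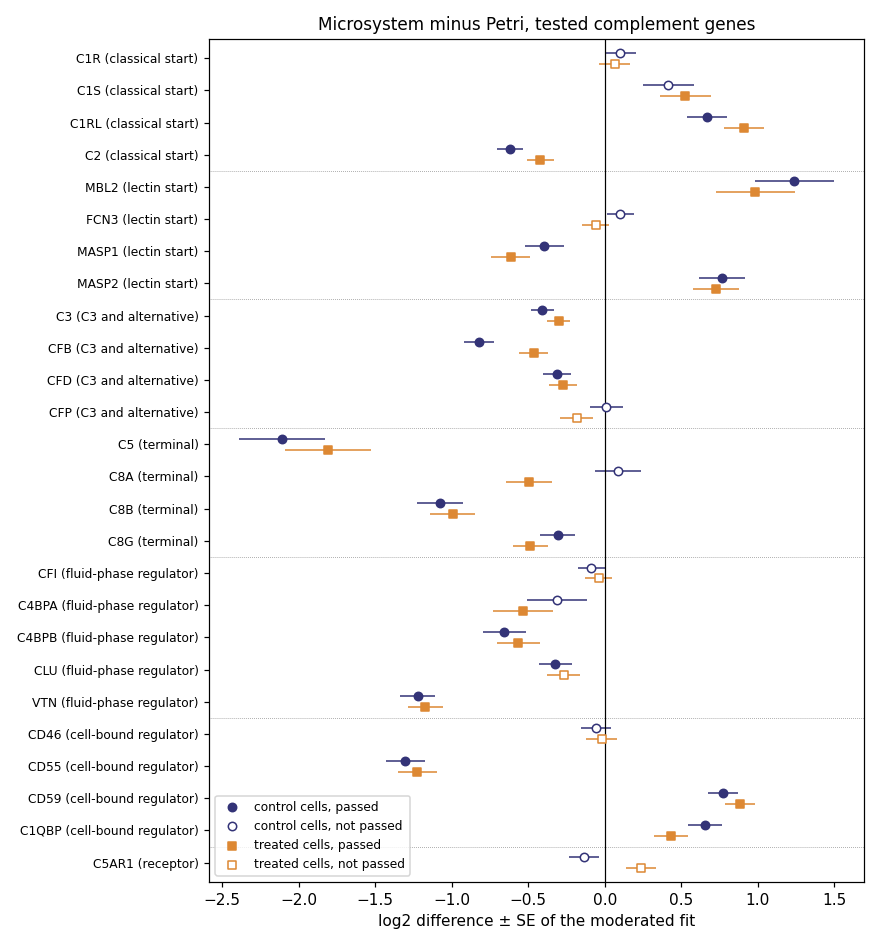
Log2 difference between microsystem and Petri cultures (x axis, ± SE of the moderated fit) for the 26 tested complement genes, grouped by role, in control cells (circles) and treated cells (squares), with filled symbols for genes that passed at adjusted p under 0.05. C5 lies farthest to the left at -2.11 and -1.81, and MBL2 farthest to the right at 1.24 and 0.98.

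The classical start held genes that went opposite ways. C1RL, which encodes a protease related to C1r, read 7.14, 6.71 and 6.50 on Petri control arrays 1 to 3, 6.52, 6.66 and 6.55 on Petri treated, 7.39, 7.62 and 7.34 on microsystem control and 7.48, 7.52 and 7.46 on microsystem treated arrays. Every microsystem array lay above every Petri array. It rose in the microsystem by 0.67 ± 0.13 SE in control cells (adjusted p = 0.00111) and by 0.91 ± 0.13 in treated cells (adjusted p = 0.000125). C2, whose product is cut by C1s and MASP-2 and forms part of the C3 convertase, read 10.75, 10.48 and 10.55 on Petri control, 10.30, 10.36 and 10.26 on Petri treated, 9.95, 10.07 and 9.89 on microsystem control and 9.87, 9.94 and 9.85 on microsystem treated arrays. All microsystem arrays lay below all Petri arrays. It fell by 0.62 ± 0.09 in control cells (adjusted p = 7.28e-05) and by 0.42 ± 0.09 in treated cells (adjusted p = 0.00157), and its other probe set gave -0.70 and -0.79. C1S, the protease that cuts C4 and C2, rose in treated cells by 0.53 ± 0.17 (adjusted p = 0.0218) and did not pass in control cells (0.41 ± 0.17, adjusted p = 0.0575). The call in treated cells was lost without Petri treated 1 or microsystem treated 3, with adjusted p of 0.0934 and 0.0952. C1R, its partner protease, read between 5.50 and 5.97 on all arrays and differed by 0.10 ± 0.10 and 0.07 ± 0.10 (adjusted p = 0.443 and 0.641).

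In the lectin start, the recognition protein gene MBL2 and the protease gene MASP2 were higher in the microsystem and the protease gene MASP1 lower. MBL2 read 6.65, 5.61 and 5.80 on Petri control, 6.63, 5.82 and 5.67 on Petri treated, 7.21, 7.42 and 7.15 on microsystem control and 7.22, 6.94 and 6.91 on microsystem treated arrays. Its Petri arrays numbered 1 were high in both groups, yet still under all microsystem arrays. The rise was 1.24 ± 0.26 in control cells, or 2.36-fold (adjusted p = 0.00162), and 0.98 ± 0.26 in treated cells (adjusted p = 0.00785). MASP2, whose product cuts C4 and C2, read 5.997, 6.11 and 5.89 on Petri control, 5.55, 5.91 and 5.68 on Petri treated, 6.62, 7.04 and 6.64 on microsystem control and 6.60, 6.63 and 6.10 on microsystem treated arrays. The groups of each comparison did not overlap, with microsystem treated 3 the lowest of its group. MASP2 rose by 0.77 ± 0.15 (adjusted p = 0.00108) and 0.73 ± 0.15 (adjusted p = 0.00179). MASP1, whose product activates MASP-2, read 6.46, 6.74 and 6.47 on Petri control, 6.68, 6.75 and 6.75 on Petri treated, 6.48, 6.09 and 5.92 on microsystem control and 6.14, 6.19 and 6.01 on microsystem treated arrays. Microsystem control 1 overlapped the Petri controls, whereas the treated groups lay apart. MASP1 fell by 0.62 ± 0.12 in treated cells (adjusted p = 0.00145) and by 0.39 ± 0.12 in control cells (adjusted p = 0.02). The fall in control cells was lost without Petri control 2, microsystem control 2 or microsystem control 3 (adjusted p between 0.0673 and 0.093), and equally when microsystem control 3 and microsystem treated 3 were left out together (adjusted p = 0.0845). The ficolin gene FCN3 stayed between 4.79 and 5.21, close to the filter level, and did not pass (0.10 ± 0.09 and -0.06 ± 0.09, adjusted p = 0.373 and 0.63).

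**Figure D2:**
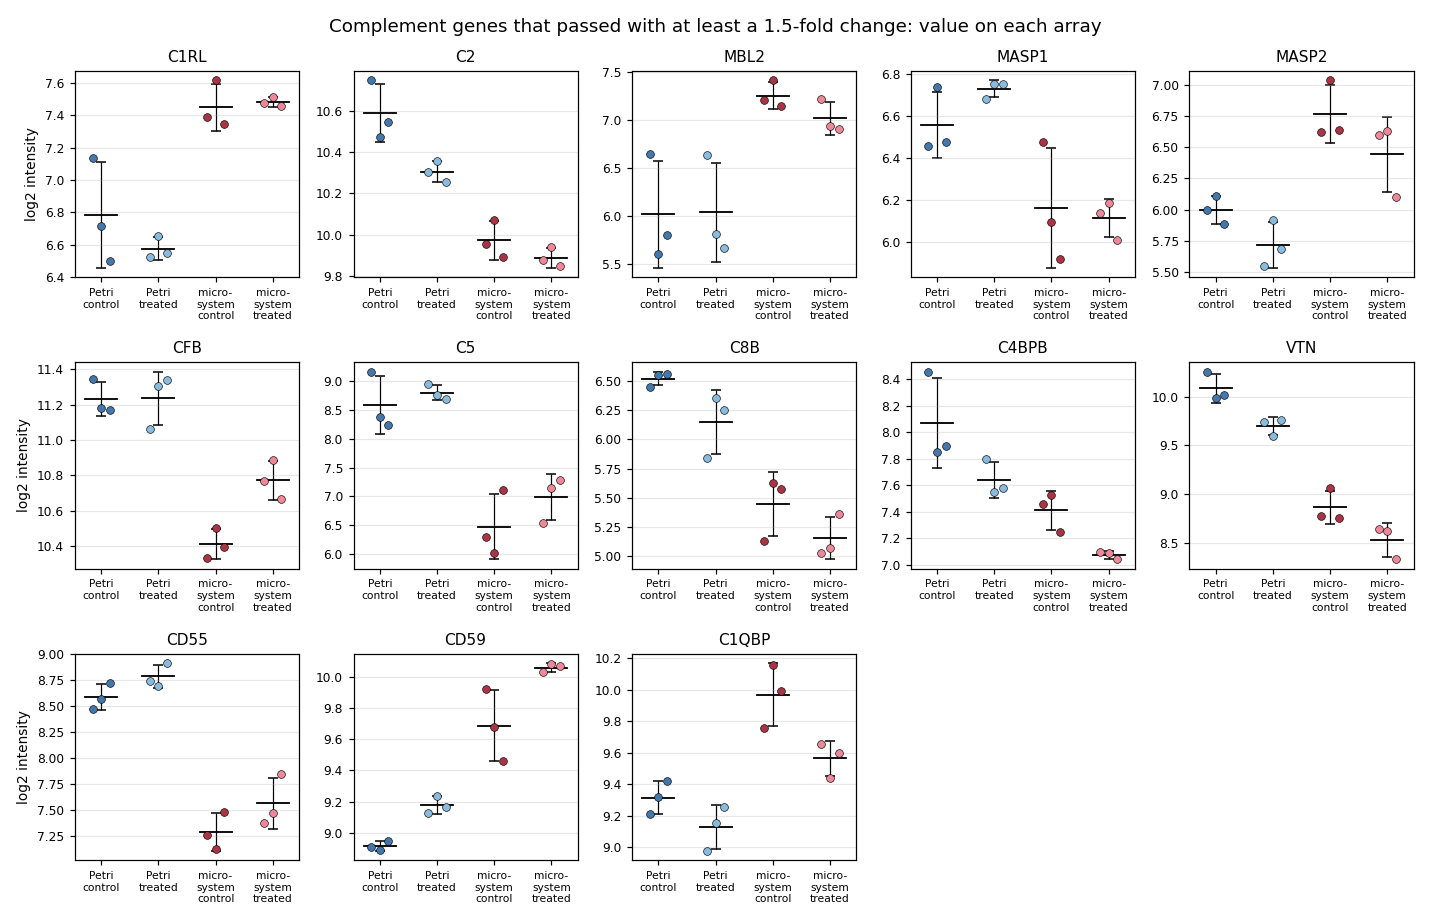
Log2 intensity (y axis, its range set for each gene) on each of 3 arrays per group (points, in order of replicate number) with the mean and SD, for the 13 complement genes that passed in at least 1 comparison with a change of at least 1.5-fold. For C5, VTN, CD55 and C8B all microsystem arrays lie below all Petri arrays, and for MBL2, C1RL, CD59 and C1QBP above them.

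C3 and the alternative pathway genes that passed were lower in the microsystem, by less than 2-fold. C3, the component on which all pathways converge, read 13.16, 13.02 and 13.05 on Petri control, 13.07, 13.01 and 13.03 on Petri treated, 12.60, 12.76 and 12.64 on microsystem control and 12.72, 12.79 and 12.71 on microsystem treated arrays. These values lie near the top of the scale, where the highest probe set of an array read 13.91 to 14.01. C3 fell by 0.41 ± 0.07 in control cells (adjusted p = 0.0006) and by 0.30 ± 0.07 in treated cells (adjusted p = 0.00539). CFD, which encodes the protease factor D, fell by 0.31 ± 0.09 (adjusted p = 0.0154) and 0.27 ± 0.09 (adjusted p = 0.0313). In control cells that call was lost without microsystem control 2 (adjusted p = 0.0739), and in treated cells without Petri treated 2 or 3 or any microsystem treated array (adjusted p from 0.055 to 0.146). The properdin gene CFP, whose product stabilises the alternative convertase, differed by 0.01 ± 0.11 and -0.18 ± 0.11 (adjusted p = 0.943 and 0.189).

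CFB, which encodes factor B, the catalytic subunit of the alternative convertase, gave different answers from its 3 probe sets. The brightest, probe set 8179351, read 11.34, 11.18 and 11.17 on Petri control, 11.06, 11.30 and 11.34 on Petri treated, 10.33, 10.50 and 10.40 on microsystem control and 10.76, 10.88 and 10.67 on microsystem treated arrays. All microsystem arrays were below all Petri arrays, and the treated ones lay between. It fell by 0.82 ± 0.10 in control cells (adjusted p = 1.85e-05) and by 0.46 ± 0.10 in treated cells (adjusted p = 0.00167). Probe set 8178115 gave -0.94 and -0.47. The dim probe set 8118345 went the other way, at 0.55 and 1.19, with group means from 5.31 to 6.50. With the mean of the probe sets in place of the brightest, the difference was -0.40 in control cells (adjusted p = 0.0153) and 0.09 in treated cells (adjusted p = 0.596). The 2 probe sets of C2 both had lower means in the microsystem.

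**Figure D3:**
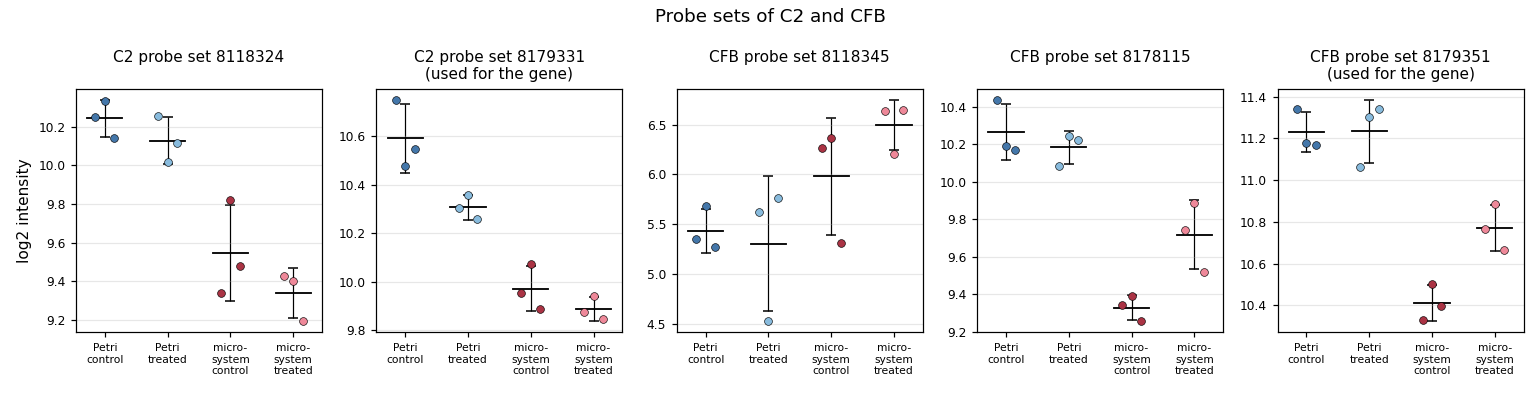
Log2 intensity (y axis, its range set for each probe set) on each array (points) with the mean and SD of 3 arrays, for the 2 probe sets of C2 and the 3 of CFB. The CFB probe sets 8178115 and 8179351 are lower in the microsystem, and 8118345 has higher means there, with single arrays of the control groups overlapping.

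The terminal components held the largest fall. C5, from which the lytic pore starts and the inflammatory fragment C5a is cut, read 9.16, 8.37 and 8.23 on Petri control, 8.94, 8.76 and 8.69 on Petri treated, 6.30, 6.02 and 7.12 on microsystem control and 6.53, 7.15 and 7.28 on microsystem treated arrays. Every Petri array lay above every microsystem array. C5 fell 4.31-fold in control cells (-2.11 ± 0.28 on the log2 scale, adjusted p = 5.2e-05) and 3.5-fold in treated cells (-1.81 ± 0.28, adjusted p = 0.000208). Leaving out any single array gave log2 differences from -2.43 to -1.82 in control cells. C8B, which encodes the beta chain of C8, read 6.45, 6.55 and 6.56 on Petri control, 5.84, 6.36 and 6.25 on Petri treated, 5.13, 5.63 and 5.58 on microsystem control and 5.03, 5.07 and 5.37 on microsystem treated arrays. Again the cultures did not overlap. C8B fell by 1.08 ± 0.15 (adjusted p = 7.55e-05) and 0.99 ± 0.15 (adjusted p = 0.00017). C8G, the gene of the gamma chain, fell by 0.49 ± 0.11 in treated cells (adjusted p = 0.00388) and by 0.31 ± 0.11 in control cells (adjusted p = 0.0411). In control cells its groups overlapped, and the call was lost without any of 6 single arrays, namely each Petri control, Petri treated 3 and microsystem controls 1 and 3 (adjusted p between 0.052 and 0.154), and with both number 3 microsystem arrays left out (adjusted p = 0.158). C8A, the gene of the alpha chain and the neighbour of C8B, exceeded the filter level on 7 of 12 arrays. It read 4.95, 5.29 and 5.39 on Petri treated and 4.74, 4.70 and 4.70 on microsystem treated arrays, and all 3 of the latter lay below their filter levels of 4.80 to 4.83. The size of its difference is therefore uncertain, although it is counted among the 13 that fell. It was lower in treated cells by 0.50 ± 0.15 (adjusted p = 0.0159), a call lost without Petri treated 2 or 3 (adjusted p of 0.0563 and 0.0743), and differed by 0.09 ± 0.15 in control cells (adjusted p = 0.66). C6, C7 and C9, the other genes of the pore, did not exceed the filter level on any array and read between 2.69 and 3.45.

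Among regulators secreted into plasma, VTN and C4BPB fell in the microsystem in control and in treated cells. VTN, whose product vitronectin binds the nascent pore and blocks its insertion, read 10.26, 9.98 and 10.02 on Petri control, 9.74, 9.60 and 9.76 on Petri treated, 8.78, 9.06 and 8.75 on microsystem control and 8.64, 8.62 and 8.33 on microsystem treated arrays. In both cultures the treated arrays lay below the controls. With culture VTN fell by 1.22 ± 0.11 in control cells (2.33-fold, adjusted p = 2.85e-06) and by 1.17 ± 0.11 in treated cells (adjusted p = 4.63e-06). C4BPB, the beta chain gene of C4b-binding protein, a cofactor in the breakdown of C4b, read 8.46, 7.85 and 7.90 on Petri control, 7.80, 7.55 and 7.58 on Petri treated, 7.46, 7.53 and 7.25 on microsystem control and 7.10, 7.09 and 7.04 on microsystem treated arrays. Petri control 1 was the highest, and the cultures did not overlap within controls or within treated cells. C4BPB fell by 0.66 ± 0.14 (adjusted p = 0.00181) and 0.57 ± 0.14 (adjusted p = 0.00533). Its neighbour C4BPA, the alpha chain gene, fell in treated cells by 0.54 ± 0.20 (adjusted p = 0.043) and not in control cells (-0.31 ± 0.20, adjusted p = 0.217). The C4BPA call was lost without Petri treated 1 or 2 or any microsystem treated array (adjusted p between 0.0618 and 0.176), and with both number 3 microsystem arrays left out (adjusted p = 0.114). CLU, which encodes clusterin, another inhibitor of the pore, fell in control cells by 0.32 ± 0.11 (adjusted p = 0.0245), a call lost without Petri control 1, microsystem control 1 or microsystem control 3 (adjusted p from 0.0803 to 0.0919), and in treated cells differed by -0.27 ± 0.11 (adjusted p = 0.0585). CFI, the gene of the protease that inactivates C3b and C4b, differed by -0.09 ± 0.09 and -0.04 ± 0.09 (adjusted p = 0.44 and 0.75; 95% intervals -0.28 to 0.10 and -0.23 to 0.15). The C1 inhibitor gene SERPING1 read 3.91 to 4.54 and was over the filter level on 0 arrays. CFHR2 and CFHR4, of a family of near-identical genes whose values are uncertain, were also over it on 0 arrays, at 1.91 to 2.31 and 2.39 to 2.81.

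The cell-bound regulators parted sharply. CD55, the decay-accelerating factor that dismantles C3 convertases, read 8.48, 8.57 and 8.72 on Petri control, 8.75, 8.70 and 8.92 on Petri treated, 7.26, 7.12 and 7.48 on microsystem control and 7.37, 7.47 and 7.84 on microsystem treated arrays. The cultures were separated by more than the range within any group. CD55 fell by 1.30 ± 0.13 in control cells (2.47-fold, adjusted p = 4.36e-06) and by 1.22 ± 0.13 in treated cells (adjusted p = 8.18e-06). CD59, which stops C9 from completing the pore, read 8.91, 8.89 and 8.95 on Petri control, 9.13, 9.24 and 9.17 on Petri treated, 9.92, 9.68 and 9.46 on microsystem control and 10.03, 10.08 and 10.07 on microsystem treated arrays. The 4 groups stood in this order without overlap. CD59 rose with culture by 0.77 ± 0.10 (adjusted p = 3.69e-05) and 0.88 ± 0.10 (adjusted p = 1.43e-05). C1QBP, whose product binds the heads of C1q and lies mostly in mitochondria, read 9.21, 9.32 and 9.42 on Petri control, 8.98, 9.16 and 9.25 on Petri treated, 9.76, 10.15 and 9.99 on microsystem control and 9.65, 9.44 and 9.60 on microsystem treated arrays. Microsystem arrays lay above Petri arrays in both states. C1QBP rose by 0.65 ± 0.11 (adjusted p = 0.000347) and 0.44 ± 0.11 (adjusted p = 0.00645). CD46, the membrane cofactor for factor I, differed by -0.06 ± 0.10 and -0.02 ± 0.10 (adjusted p = 0.679 and 0.888), with 95% intervals of -0.27 to 0.16 and -0.24 to 0.20. By RefSeq's order, C4BPB, C4BPA and CD55 are adjacent coding genes on chromosome 1 with CD46 separated from CD55 by 3 genes, so that the cluster held CD55 at -1.30 and CD46 at -0.06 in control cells. C1S, C1R and C1RL, adjacent on chromosome 12, stood at 0.41, 0.10 and 0.67.

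Of the receptor genes, C3AR1, for the C3a receptor, lay well below the filter level on every array (3.48 to 3.88, with the filter level between 4.80 and 4.90). C5AR1, for the C5a receptor, was near it and read between 4.56 and 5.21. C5AR1 differed with culture by -0.13 ± 0.10 in control cells (adjusted p = 0.292) and 0.24 ± 0.10 in treated cells (adjusted p = 0.0665).

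Acetaminophen was associated with smaller differences, all under 1.5-fold among genes that passed. In Petri dishes CFI, VTN and C5AR1 fell, and in the microsystem CFI, C8G and C1QBP fell while CD59 and CFB rose. In Petri dishes 3 of 26 genes fell and 0 rose, or 11.5% and 0%, against 1.98% and 8.38% of all genes. In the microsystem 3 fell and 2 rose (11.5% and 7.69%), against 2.67% and 6.39% of all genes. The median differences were -0.045 and -0.058, beside 0.013 and -0.007 over all genes. The effects in the 2 cultures share no array, and across the 26 genes they correlated with r = 0.72, with the same sign for 19. CFI alone passed in both. This agreement too was not computed over all genes.

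**Figure D4:**
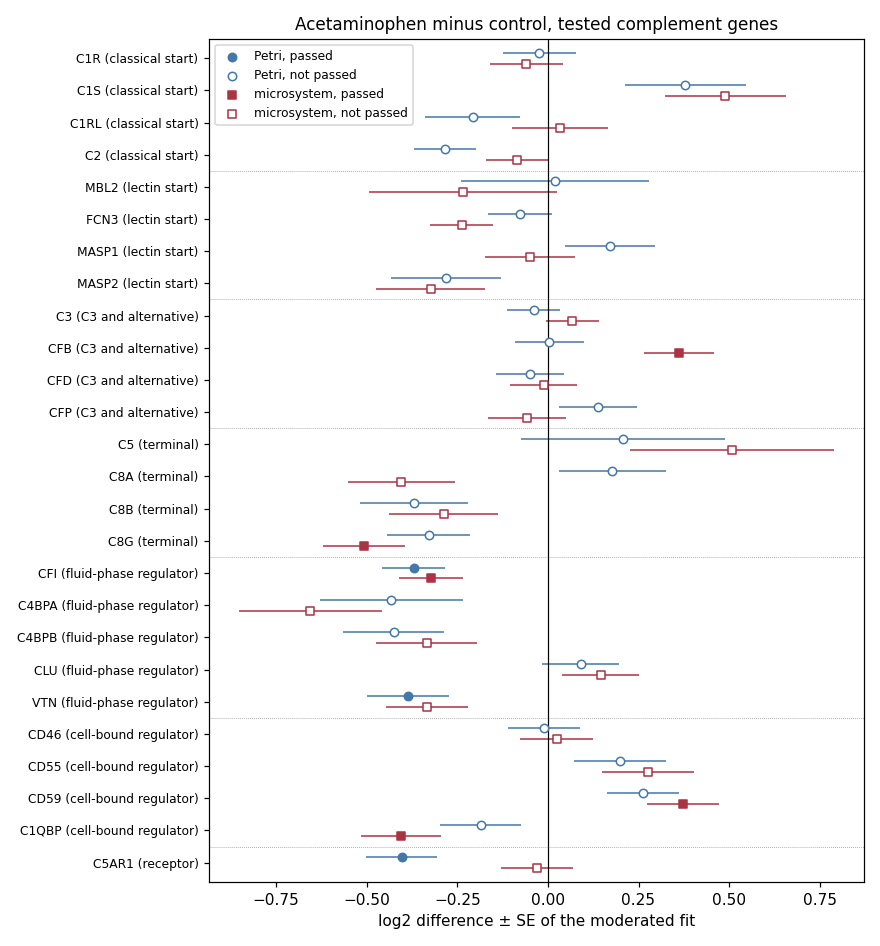
Log2 difference between acetaminophen-treated and control cells (x axis, ± SE of the moderated fit) for the 26 tested complement genes, grouped by role, in Petri dishes (circles) and the microsystem (squares), with filled symbols for genes that passed at adjusted p under 0.05. CFI is filled in both cultures, at -0.37 and -0.32, and differences of genes that passed stay between -0.51 and 0.37.

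CFI read 9.94, 9.74 and 9.74 on Petri control, 9.34, 9.50 and 9.48 on Petri treated, 9.72, 9.81 and 9.63 on microsystem control and 9.33, 9.50 and 9.37 on microsystem treated arrays. Treated arrays lay below control arrays in both cultures. It fell by 0.37 ± 0.09 in Petri dishes (adjusted p = 0.0166) and by 0.32 ± 0.09 in the microsystem (adjusted p = 0.0368). VTN fell by 0.39 ± 0.11 in Petri dishes (adjusted p = 0.046) and did not pass in the microsystem (-0.33 ± 0.11, adjusted p = 0.0834). C5AR1 read 5.13, 5.21 and 5.20 on Petri control and 4.56, 4.87 and 4.91 on Petri treated arrays, a fall of 0.40 ± 0.10 (adjusted p = 0.0197). Petri treated 1 lay below its filter level of 4.82, and Petri treated 2 and 3 lay just above theirs of 4.83 and 4.84. The size of that fall is therefore uncertain. In the microsystem C5AR1 differed by -0.03 ± 0.10 (adjusted p = 0.868). The Petri calls rested on few arrays: that of CFI was lost without Petri control 1 or Petri treated 1 (adjusted p of 0.0611 and 0.0581), that of C5AR1 without Petri control 2 or 3 or Petri treated 1 (adjusted p from 0.0619 to 0.072), and that of VTN without any of 8 arrays, namely every Petri array and microsystem treated 1 and 2 (adjusted p from 0.0551 to 0.165). Without Petri treated 1, 0 of the 26 genes passed, and leaving out a Petri control, whichever it was, left 1. Over all genes 1158 passed without Petri treated 1, and 1095, 769 and 843 without Petri controls 1 to 3, against 1367 with all arrays. Deviations of same-numbered Petri arrays from their group means correlated with r of 0.48, 0.19 and 0.31, and whether the arrays are pairs is not known. With the replicate number as a block within each culture, 2180 of all genes passed in Petri dishes, against 1367 without it. Under that block 7 of the 26 genes fell there and 0 rose, and the 2180 were not split into rises and falls. The 7 were CFI (adjusted p = 0.0161), VTN (0.0137), C5AR1 (0.00775), C4BPA (-0.43, adjusted p = 0.0102), C4BPB (-0.43, adjusted p = 0.0103), C2 (-0.28, adjusted p = 0.0364) and C8B (-0.37, adjusted p = 0.0386). With array weights 6 of the 26 fell there and 2 rose (C1S and CD59), beside 3602 of all genes that passed.

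In the microsystem, C8G read 7.20, 7.55 and 7.10 on control and 6.85, 6.64 and 6.83 on treated arrays, and fell by 0.51 ± 0.11 (adjusted p = 0.0158). CD59 rose by 0.37 ± 0.10 (adjusted p = 0.0335), CFB by 0.36 ± 0.10 (adjusted p = 0.0336, probe sets 0.36, 0.39 and 0.52), and C1QBP fell by 0.41 ± 0.11 (adjusted p = 0.0377), all without overlap of treated and control arrays. In Petri dishes the differences of these 4 genes were -0.33 ± 0.11 for C8G, 0.26 ± 0.10 for CD59, 0.00 ± 0.10 for CFB and -0.19 ± 0.11 for C1QBP, with adjusted p of 0.0842, 0.108, 0.984 and 0.309. C4BPA, with the largest difference of the 26 genes in the microsystem at -0.66 ± 0.20, did not pass (adjusted p = 0.0541). It passed under 8 alternatives, among them quantile normalization (adjusted p = 0.0446), the 60th percentile filter (0.0476) and array weights (0.0278). With only the 6 microsystem arrays in the fit it was the single gene that passed (0.0441), and the 5 calls given above were lost (adjusted p between 0.0675 and 0.119). Here too single arrays decided the calls. That of C8G was lost when array 2 of either microsystem group was left out (adjusted p of 0.0587 and 0.0756). That of CD59 without microsystem control 2 or 3 or any microsystem treated array (0.0623 to 0.108), and that of CFB without any microsystem control or microsystem treated 1 or 2 (0.0522 to 0.136). That of C1QBP was lost without any of 7 arrays, namely the number 2 array of every group, microsystem control 3 and microsystem treated 1 and 3 (0.0516 to 0.15). That of CFI was lost without any of 8, namely Petri control 2, Petri treated 2 and 3, microsystem controls 1 and 2 and every microsystem treated array (0.0502 to 0.123). Without microsystem control 2 or without microsystem treated 2, 0 of the 26 genes passed in the microsystem, and with both number 3 microsystem arrays left out C8G alone did. Over all genes 603 passed without microsystem control 2, 459 without microsystem treated 2 and 678 without both number 3 arrays, against 1196. C3 differed by -0.04 ± 0.07 in Petri dishes and 0.07 ± 0.07 in the microsystem (adjusted p = 0.771 and 0.596), with 95% intervals of -0.20 to 0.12 and -0.09 to 0.23.

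Whether the acetaminophen effect depended on culture was tested as the difference of the effects, microsystem minus Petri. None of the 26 genes passed in limma, against 0.00758% of all genes that rose and 0.0227% that fell. The 3 largest differences were those of C5AR1 (0.37 ± 0.14), CFB (0.36 ± 0.14) and C8A (-0.58 ± 0.21), with adjusted p of 0.574, 0.584 and 0.545. The C8A value rests on microsystem treated arrays that were all below the filter level, and that of C5AR1 on Petri treated arrays below or just above it. For C5 the difference was 0.30 ± 0.40, with a 95% interval from -0.56 to 1.16.

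Of 27 other genes of the cascade, listed by name, 9 were tested. With culture, 2 fell and 1 rose in control cells and 4 fell and 1 rose in treated cells, beside 18.3% and 26.5% of all genes in control and 18.9% and 22.6% in treated cells. ITGB2, the beta chain of the receptors for C3 fragments on leukocytes, read 9.24, 9.07 and 9.02 on Petri control and 7.59, 7.80 and 7.79 on microsystem control arrays, and fell by 1.38 ± 0.09 (adjusted p = 2.19e-07). In treated cells it fell by 1.73 ± 0.09 (adjusted p = 3.76e-08). The chains of carboxypeptidase N, which trims C3a and C5a in plasma, went opposite ways. CPN1, the catalytic chain gene, fell by 1.49 ± 0.12 in control cells (adjusted p = 1.33e-06) and 1.25 ± 0.12 in treated cells (adjusted p = 5.53e-06), while CPN2, the chain that carries it, rose by 0.99 ± 0.15 (adjusted p = 0.000184) and 0.65 ± 0.15 (adjusted p = 0.00403). ITGAX fell in treated cells by 0.30 ± 0.10 (adjusted p = 0.0299). CPB2, another carboxypeptidase that trims C3a and C5a, fell in treated cells by 0.98 ± 0.17 (adjusted p = 0.000523) and differed by -0.16 ± 0.17 in control cells (adjusted p = 0.464). With acetaminophen, 1 of the 9 fell in Petri dishes (CPN1, by 0.45 ± 0.12, adjusted p = 0.0348), beside 1.98% of all genes. In the microsystem 2 fell, beside 2.67% of all genes, CPB2 by 1.32 ± 0.17 (adjusted p = 0.000778) and ITGB2 by 0.37 ± 0.09 (adjusted p = 0.0235). In both cultures 0 rose, beside 8.38% and 6.39% of all genes.

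Of 16 genes for liver and acute phase factors and their signalling chain, 11 were tested, and with culture in control cells 2 rose and 4 fell, beside 26.5% and 18.3% of all genes. The interferon-induced factor gene IRF1 rose by 0.69 ± 0.17 (adjusted p = 0.00455) and CEBPA by 0.43 ± 0.15 (adjusted p = 0.0297). FOXA2, a pioneer factor of liver genes, fell by 0.89 ± 0.12 (adjusted p = 8.07e-05), CEBPD, an acute phase factor, by 0.57 ± 0.12 (adjusted p = 0.00198), the interleukin-6 receptor gene IL6R by 0.38 ± 0.08 (adjusted p = 0.00145) and its feedback inhibitor SOCS3 by 0.30 ± 0.09 (adjusted p = 0.014). In treated cells 3 rose and 3 fell, beside 22.6% and 18.9% of all genes, with IRF1 at 1.09 ± 0.17 (adjusted p = 0.000208) and IL6ST, the signalling chain of that receptor, at 0.50 ± 0.07 (adjusted p = 0.000136). With acetaminophen STAT3 rose in Petri dishes by 0.56 ± 0.11 (adjusted p = 0.0062) and IL6ST fell by 0.32 ± 0.07 (adjusted p = 0.0147), and in the microsystem IL6R rose by 0.29 ± 0.08 (adjusted p = 0.0357). Whether these changes bear on the complement genes was not tested.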

How the data were processed

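Messenger RNA of 12 samples was measured on Affymetrix arrays with 1 array per sample. The authors deposited log2 intensities per probe set, which per the submitters' processing notes came from RMA in Expression Console by Affymetrix. The sources used here name no version and no build, so the only positions printed are those of RefSeq sequences. The deposited values were used without new normalization. Of 32321 probe sets, 19158 had 1 gene symbol in the array's annotation, 1388 had several and 11775 had none. Group means of the 13199 genes that passed the filter were estimated together from the 12 arrays with limma 3.58.1, run in R 4.3.3, on 8 residual and 5.35 prior degrees of freedom. All tests were two-sided with Benjamini-Hochberg adjustment across every gene tested, and "rose" and "fell" mean adjusted p under 0.05. The procedure was tested on simulated data. Values on every array are given for complement genes that passed with at least a 1.5-fold change, and the text gives them for further genes as examples. The genes and lists were chosen with earlier results of these data known. Python 3.11.15, pandas 2.3.3 and matplotlib 3.10.9 made the sequence search and figures.

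Alternatives were a replicate block, a replicate block within each culture, only the arrays compared, quantile normalization, equal array medians, array weights, averaging each gene's probe sets, dropping the filter, raising it to the 60th percentile, and leaving out each array. Leaving out both microsystem arrays numbered 3 was added after the values were seen. Deviations from group means of same-numbered arrays correlated across genes with r of 0.48, 0.19 and 0.31 for treatment in Petri dishes. For the microsystem's treatment effect r was 0.11, 0.07 and 0.60. It was 0.18, -0.03 and 0.13 between control cultures and 0.14, -0.14 and 0.13 between treated cultures. Differently numbered arrays were not compared in this way, and the labels state no pairing. Whether the numbers pair any arrays is therefore not known.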

Additional observations from a re-analysis of the deposited data

How the results depend on the processing

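The main count of complement genes that passed was 3 for treatment in Petri dishes, 5 for treatment in the microsystem, 17 for culture in controls, 19 for culture in treated cells and 0 where the treatment effects were compared. With the replicate block the treatment counts were 6 and 8, where 1705 and 1581 of all genes passed. With the replicate block within each culture they were 7 (all falls) and 11 (7 falls and 4 rises), beside 2180 and 2109 of all genes. With only the arrays compared they were 5 and 1, beside 1666 and 454, the 1 being C4BPA and none of the main 5. With array weights 8 passed for treatment in Petri dishes, beside 3602 of all genes. Without both microsystem arrays numbered 3, 1 passed for treatment in the microsystem, beside 678. Calls over all genes thus moved with these settings too. The culture counts stayed within 1.5 times the main count under every alternative run, with 18 and 21 under the replicate block, and the difference stayed at 0 under all that could be run. Leaving out single arrays gave 0 to 5, 0 to 7, 14 to 18, 16 to 20 and 0 to 0 genes in the same order. The fall of CFB with culture in treated cells turned to 0.0885 with the mean of its probe sets, because the dim probe set went the other way, and no other called gene changed sign under any alternative run. Of the calls, all 3 and all 5 for treatment were lost under some alternative, but 4 of 17 and 5 of 19 for culture. Counts over all genes for treatment in Petri dishes ran from 697 to 3602 around 1367, for treatment in the microsystem from 454 to 2109 around 1196. No alternative scaling moved the median of all genes by over 0.1. Genes with probe sets near the filter level, among them FCN3, C8A and C5AR1, are limited by signal over background.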
